A study of Mus musculus with 16 samples.

Results

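The Notch receptors, ligands and effectors measured here are 10 genes, taken by their symbols from the 24341 genes listed in every library: the receptors Notch1, Notch2 and Notch3, the ligands Dll1, Jag1 and Jag2, the DNA-binding partner Rbpj, and the effectors Hes1, Hey1 and Heyl. All 10 were found, and all 10 passed the filter on low values (at least 1 FPKM in at least 2 libraries). RNA was sequenced from muscle cells of C57BL/6 mice aged 2 to 3 months, in 16 libraries of 6 groups. Of these, p53WT_G2 and p53KO_G2 have 2 libraries each, and p53WT, p53KO, p53WT_3dai and p53KO_3dai have 3. The labelled genotype is p53 WT or p53KO, and the labels do not say where or how the allele is removed. They do not spell out 3dai or G2 either, so groups are called by these suffixes, and p53WT and p53KO by "no suffix". Cells of 3dai were taken from the tibialis anterior, a muscle of the lower leg, and all other cells from hind limb muscles, so suffix and muscle cannot be told apart in any difference from 3dai. All cells were sorted for CD34 and alpha-7 integrin and against CD31, CD11b, CD45 and Sca-1, a gate that enriches muscle stem cells (satellite cells). The series title names a Duchenne muscular dystrophy model, but no Dmd genotype is labelled for these libraries.

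Notch is a cell surface receptor that is cut when a ligand of the Delta or Jagged family on a neighbouring cell binds it. The freed intracellular part enters the nucleus, joins the DNA-binding protein RBPJ and switches on genes that code repressors of the Hes and Hey families. In resting satellite cells this pathway is known for holding back myogenic differentiation, and Notch3 and Heyl are also known from the mural cells of blood vessels.

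The upstream sequences of Notch3 and Jag1 are shown because these genes had the most abundant receptor and ligand transcripts with no suffix and both fell in 3dai. The set of RefSeq (GRCm38.p6) upstream sequences used here held an entry for 7 of the 10 genes and none for Hes1, Hey1 and Heyl. The 250 bases before each start were searched on both strands for GTGGGAA (an RBPJ site), its core TGGGAA (contained in the former), the E-box CACGTG, the class C site CACGCG and the N-box CACNAG, the last 3 being letters that Hes and Hey proteins are known to bind. The Notch3 window below is complete (chr17:32166891-32167140, minus strand). For Jag1 only the outer 126 bases are shown (chr2:137116645-137116770, minus strand), since GENCODE M21 places exons over the other 124. Capitals mark motif matches.
Notch3: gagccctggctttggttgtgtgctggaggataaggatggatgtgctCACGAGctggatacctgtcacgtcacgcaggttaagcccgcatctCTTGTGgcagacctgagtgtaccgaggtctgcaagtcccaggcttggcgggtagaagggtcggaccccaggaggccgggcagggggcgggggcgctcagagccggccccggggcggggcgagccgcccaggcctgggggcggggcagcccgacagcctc
Jag1: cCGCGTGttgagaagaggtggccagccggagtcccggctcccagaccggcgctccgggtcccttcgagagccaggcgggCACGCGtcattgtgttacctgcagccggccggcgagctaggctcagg
The Notch3 window held 2 N-box matches, 204 and 159 bases before the start, and 36.7% of 32851 windows of the same length held at least 1. Jag1 held 2 class C matches, 249 and 171 bases before its start, a motif present in 7.62% of windows. Neither motif was particular to these genes: Notch1 and Notch2 also held N-box matches, and Notch2 and Dll1 class C matches. The Dll1 and Jag2 windows lie over annotated exons and are not printed. None of the 7 genes held GTGGGAA (5.42% of windows) or the E-box (6.02%), and the core alone was found only upstream of Rbpj (21.6% of windows). A match is a string of letters, not a bound site.

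On mm10 coordinates, as the files give them, Notch1 lies at chr2:26457902-26503822, Notch2 at chr3:98013538-98150367 and Notch3 at chr17:32120893-32166852. Dll1 lies at chr17:15367354-15375823, Jag1 at chr2:137081451-137116520, Jag2 at chr12:112908590-112929495 and Rbpj at chr5:53555779-53657445. Hes1 lies at chr16:30065357-30067796, Hey1 at chr3:8663359-8667038 and Heyl at chr4:123233556-123249870. FPKM is the number of fragments over the exons of a gene, scaled to transcript length and to the mapped total of the library. In GENCODE M21, exons of Notch1, Notch3 and Dll1 share bases with transcripts on the opposite strand and exons of Notch2 with one on the same strand. Rbpj has processed pseudogenes on chromosomes 4 and 6, so its counts are less certain than those of the other members. The sources used here do not say whether counting used the strand.

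Between 10240 and 11574 genes reached 1 FPKM per library, while their sequencing depth is unknown. The labels do not tie replicates to separate animals, and p-values here measure only the spread between samples, which may be technical. Trp53, the gene of the knockout, had lower FPKM in p53KO than in p53WT without overlap at each suffix, and the log2 difference was -2.37 for no suffix, -1.80 for 3dai and -1.78 for G2. Of the sort markers, Itga7 (alpha-7 integrin) lay between 81.1 and 317 FPKM and Pecam1 (CD31) at no more than 2.09. Cd34 passed as lower in G2 than with no suffix in both genotypes. Ptprc (CD45) and Itgam (CD11b) were among 7 leukocyte markers that summed to no more than 27.4 FPKM in any library. None of 8 satellite cell markers was at 0 throughout a group, and they summed to 573 to 2509 FPKM per library. Markers of other cells were present too. With no suffix, 6 fibro-adipogenic markers summed to 933 to 1148 FPKM and 8 pericyte and smooth muscle markers to 289 to 926.5. There 6 Schwann cell markers summed to 543 to 658 and 6 tenocyte markers to 181 to 353. In 3dai these sums were 76.6 to 117, 14.7 to 51.5, 15.1 to 55.7 and 36.0 to 83.4, in the same order. In such pools, fewer cells of a type and less RNA per cell cannot be told apart. Leaving out p53KO_3dai replicate 1 moved the number of genes called between genotypes in 3dai from 11 to 514, so results that use this library are also given without it where that changes a call.

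**Figure D1:**
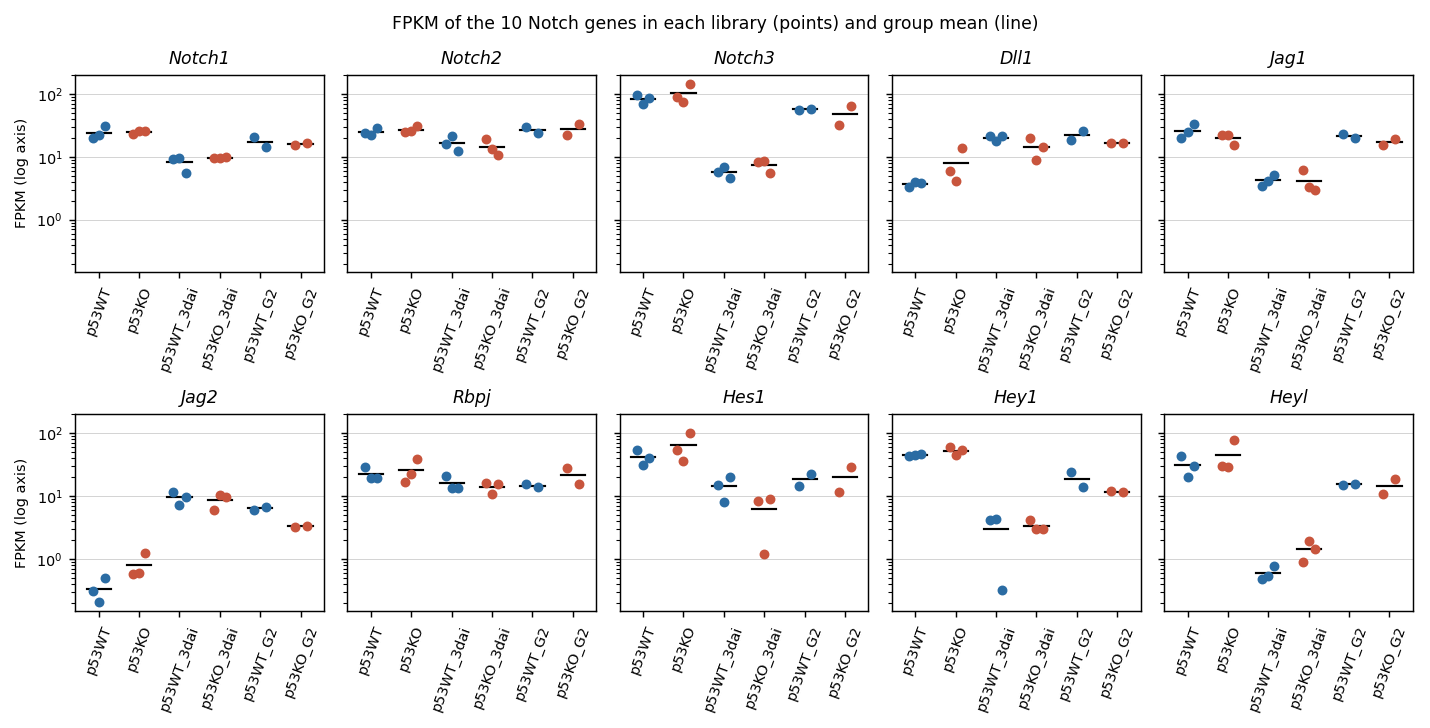
FPKM (log axis) of the 10 Notch genes in each of the 16 libraries, with points for libraries, lines for group means, blue for p53WT and red for p53KO. Notch3, Jag1, Hey1 and Heyl sit lower in 3dai than with no suffix and in G2. Within each genotype Notch3, Hey1 and Heyl in G2 lie between 3dai and no suffix. Jag2 sits at or below 1.26 FPKM with no suffix and at or above 3.29 elsewhere.

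In p53WT cells with no suffix Notch3 was the most abundant of the 10 (83.9 ± 13.5 FPKM, mean ± SD, n = 3). Hey1 (45.2 ± 1.08), Hes1 (42.2 ± 12.0) and Heyl (31.5 ± 11.7) followed. Jag1, Notch2, Notch1 and Rbpj stood at 26.0, 25.1, 24.3 and 22.8 FPKM, with overlapping libraries. Dll1 (3.71 ± 0.344) and Jag2 (0.335 ± 0.144) were lowest. In p53WT_3dai the order of means was different: Dll1 (20.1 ± 1.87) headed it and Heyl (0.597 ± 0.164) came last. There the libraries of Dll1 overlapped those of Notch2, Rbpj and Hes1, and those of Heyl overlapped Hey1.

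Which Notch genes differed in 3dai cells from cells with no suffix? Notch3, Heyl, Hey1, Jag1, Notch1 and Hes1 fell in both genotypes, and the ligands Dll1 and Jag2 rose. In p53WT 8 of the 10 passed limma's test at an adjusted p under 0.05, 2 higher and 6 lower. There 52.7% of all 12954 genes passed, 31.8% higher and 20.9% lower. Of the 10, 9 did not overlap between the groups, as for 59.7% of all genes. In p53KO all 10 passed, 2 higher and 8 lower, where 53.1% of genes did, 30.4% higher and 22.7% lower. Again 9 did not overlap, beside 58.7% of all genes, and 9 members passed without p53KO_3dai replicate 1. The members' median difference was -1.50 in p53WT and -1.68 in p53KO on the log2(FPKM + 1) scale, on which the medians over all genes were 0.23 and 0.14. That scale understates changes of low genes.

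Which Notch genes differed in G2 cells? Dll1 and Jag2 rose against no suffix in both genotypes, and 3 members, Notch3, Hey1 and Heyl, fell in p53KO. In p53WT these 3 were lower too without passing (-0.54, -1.25 and -0.91). The difference between genotypes in these falls was -0.57, -0.81 and -0.54 and passed for none of them. In p53WT 2 of 10 members passed, both higher, where 27.5% of all genes did, 22.1% higher and 5.39% lower, and 7 did not overlap, beside 56.1% of all genes. In p53KO 5 passed, 2 higher and 3 lower, where 29.6% of genes did, 22.5% higher and 7.06% lower, and 7 did not overlap, beside 52.1% of genes. The members' medians were -0.50 and -0.42, beside 0.33 and 0.31 over all genes. Against 3dai, 5 members were higher in p53WT_G2 (Notch1, Notch3, Jag1, Hey1 and Heyl) where 20.6% of genes passed, 13.9% higher and 6.7% lower, and 7 did not overlap, beside 53.8% of genes. In p53KO_G2 5 were higher (Notch2, Notch3, Jag1, Hey1 and Heyl) and Jag2 lower, where 23.2% passed, 16.1% higher and 7.1% lower, and 8 did not overlap, beside 48.9% of genes. The comparisons with no suffix share their control libraries, and their values are therefore given side by side and not correlated.

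**Figure D2:**
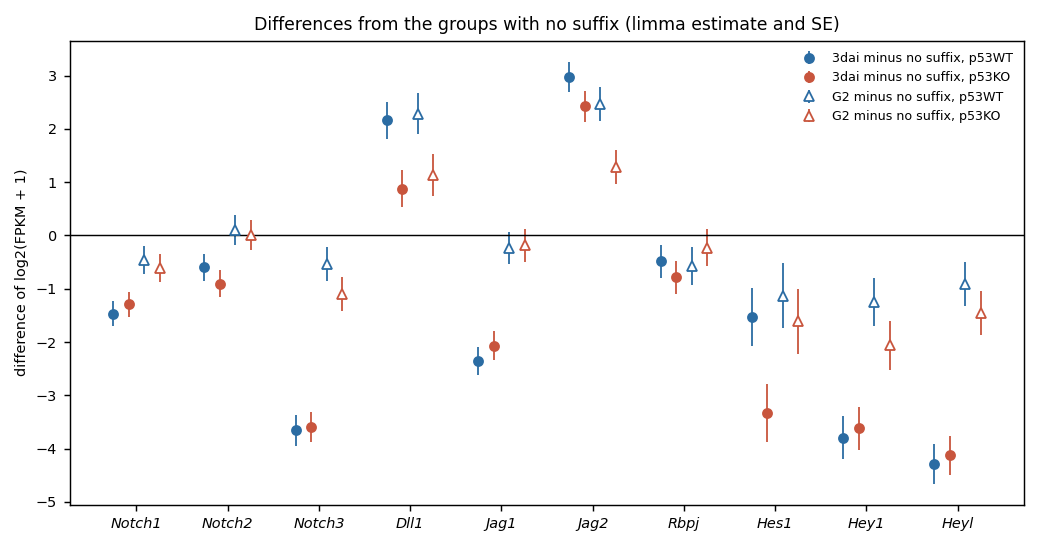
Differences of 3dai (filled circles) and G2 (open triangles) from no suffix for each gene, as limma's log2(FPKM + 1) estimate with its standard error, blue for p53WT and red for p53KO. Dll1 and Jag2 lie above 0 in all 4 comparisons, and Notch3, Hey1 and Heyl lie farther below 0 in 3dai than in G2.

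Among the receptors Notch3, which is known from satellite cells and mural cells, had the largest fall in 3dai. Its FPKM was 95.3, 69.0 and 87.4 in p53WT, 5.66, 6.96 and 4.57 in p53WT_3dai and 56.1 and 57.9 in p53WT_G2. In p53KO it was 88.5, 74.6 and 147, in p53KO_3dai 8.20, 8.48 and 5.46 and in p53KO_G2 32.2 and 63.9. No 3dai library reached any library of the other groups. The mean was 14.6-fold lower in 3dai in p53WT (log2 difference -3.66, SE 0.29, adjusted p = 7.61e-08 by limma) and 14.0-fold lower in p53KO (-3.60, SE 0.29, adjusted p = 8.37e-08). From no suffix to G2 it fell in p53KO (-1.11, SE 0.32, adjusted p = 0.0164), and in p53WT the difference did not pass (-0.54, adjusted p = 0.234) except under median-of-ratios scaling (0.0374 to 0.438 over 13 alternatives). The p53KO call in G2 was lost with only the groups compared, without p53KO replicate 3 (adjusted p = 0.0572) and without p53KO_G2 replicate 1 (0.263), with a range of 0.00245 to 0.263 over 13 alternatives.

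Notch1, the receptor most often studied in myogenic cells, moved less. It stood at 19.9, 22.1 and 30.8 FPKM in p53WT, 9.21, 9.68 and 5.64 in p53WT_3dai and 20.5 and 14.2 in p53WT_G2. The p53KO libraries held 23.2, 26.1 and 25.9, p53KO_3dai 9.45, 9.51 and 9.93 and p53KO_G2 15.2 and 16.9. Here too every 3dai library was below every other library. Notch1 fell in 3dai in p53WT (log2 difference -1.47, SE 0.23, adjusted p = 8.33e-05) and in p53KO (-1.29, SE 0.23, adjusted p = 0.000261). In G2 against no suffix it did not pass (-0.46 and -0.61), but it passed under both scalings in p53WT (-0.87 and -0.88) and in p53KO (-1.06 and -1.02), with adjusted p from 0.0240 to 0.732 and from 0.00785 to 0.303 over 13 alternatives each. Against 3dai it was higher in p53WT_G2 (1.01, adjusted p = 0.0129), a call lost in 2 of 13 alternatives. These were the fit of only the groups compared (adjusted p = 0.0531) and that without p53WT_G2 replicate 1 (log2 difference 0.76).

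Notch2, a receptor close in sequence to Notch1, had the narrowest range of group means among the receptors. Its FPKM was 24.1, 22.6 and 28.5 in p53WT, 16.0, 21.5 and 12.2 in p53WT_3dai and 30.3 and 24.0 in p53WT_G2, and 25.0, 25.8 and 30.8 in p53KO, 19.1, 13.5 and 10.6 in p53KO_3dai and 22.3 and 33.1 in p53KO_G2. Within each genotype the 3dai libraries lay below those of the other groups, while no suffix and G2 overlapped. The difference in 3dai passed in p53KO (-0.91, SE 0.25, adjusted p = 0.00658) but not in p53WT (-0.60, SE 0.25, adjusted p = 0.0565), where quantile normalization, median-of-ratios scaling, a filter at a mean of 5 FPKM or leaving out p53WT_3dai replicate 2 made it pass. With p53KO_3dai replicate 1 alone in its group, assumed to vary like the other groups, the p53KO call was lost (adjusted p = 0.273, over 15 alternatives 0.000391 to 0.273). The difference between genotypes in this fall was -0.31 log2 units and did not pass (adjusted p = 0.931). Its rise from p53KO_3dai to p53KO_G2 (0.91, adjusted p = 0.0290) was lost in 7 of 14 alternatives (0.00918 to 0.462), among them those without p53KO_3dai replicate 2 or 3, without p53KO_G2 replicate 2, and with the replicate number as a block (0.0602).

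The ligands moved in opposite directions. Jag1, a Jagged ligand, fell in 3dai: its FPKM was 20.2, 24.9 and 33.0 in p53WT, 3.50, 4.10 and 5.07 in p53WT_3dai and 23.0 and 20.2 in p53WT_G2. In p53KO it was 22.5, 22.0 and 15.7, in p53KO_3dai 6.24, 3.31 and 2.96 and in p53KO_G2 15.5 and 19.3. The 3dai libraries stood apart from all others, and G2 overlapped no suffix in both genotypes. The fall was -2.36 in p53WT (SE 0.27, adjusted p = 3.63e-06) and -2.07 in p53KO (SE 0.27, adjusted p = 1.31e-05). The G2 differences from no suffix were -0.23 (95% interval -0.88 to 0.41) and -0.19 (-0.83 to 0.46), and did not pass.

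Jag2, the other Jagged ligand, was near the lower limit of these data with no suffix and rose with both suffixes. It stood at 0.310, 0.205 and 0.490 FPKM in p53WT and 0.570, 0.609 and 1.26 in p53KO. In p53WT_3dai it was 11.7, 7.37 and 9.68, and in p53KO_3dai 6.12, 10.6 and 9.78. The G2 libraries held 5.96 and 6.84 (p53WT_G2) and 3.29 and 3.41 (p53KO_G2). No library with a suffix overlapped those without. The rise in 3dai was 2.97 in p53WT (SE 0.29, adjusted p = 6.28e-07) and 2.43 in p53KO (SE 0.29, adjusted p = 4.77e-06). In G2 it was 2.47 (SE 0.32, adjusted p = 5.15e-05) and 1.28 (SE 0.32, adjusted p = 0.00742), and the p53KO call was lost with only the groups compared (0.00370 to 0.0513 over 12 alternatives). Jag2 was also lower in p53KO_G2 than in p53KO_3dai (-1.14, adjusted p = 0.0189), a call lost in 7 of 13 alternatives (0.00645 to 0.379), including each of those without p53KO_3dai replicate 2 or 3 or either p53KO_G2 library.

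Dll1, a Delta ligand that differentiating myogenic cells are known to carry, rose as well. Its FPKM was 3.32, 3.98 and 3.83 in p53WT, 21.1, 17.9 and 21.2 in p53WT_3dai and 18.6 and 25.7 in p53WT_G2. The p53WT libraries did not overlap those with either suffix, and the 2 suffixes overlapped each other. The rise was 2.16 in 3dai (SE 0.34, adjusted p = 8.60e-05) and 2.28 in G2 (SE 0.39, adjusted p = 0.000483). In p53KO the values were 5.87, 4.13 and 14.0, in p53KO_3dai 19.9, 9.02 and 14.5 and in p53KO_G2 16.6 and 16.9. Here p53KO replicate 3 lay above p53KO_3dai replicate 2, and the rises were 0.88 in 3dai (SE 0.34, adjusted p = 0.0433) and 1.13 in G2 (SE 0.39, adjusted p = 0.0368). Each was lost in 8 alternatives, with adjusted p from 0.00173 to 0.212 over 15 in 3dai and from 0.00233 to 0.185 over 13 in G2. Both scalings were among these, as were the fits without p53KO replicate 1 or 2, without p53KO_3dai replicate 1 or 3, and without either p53KO_G2 library.

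**Figure D3:**
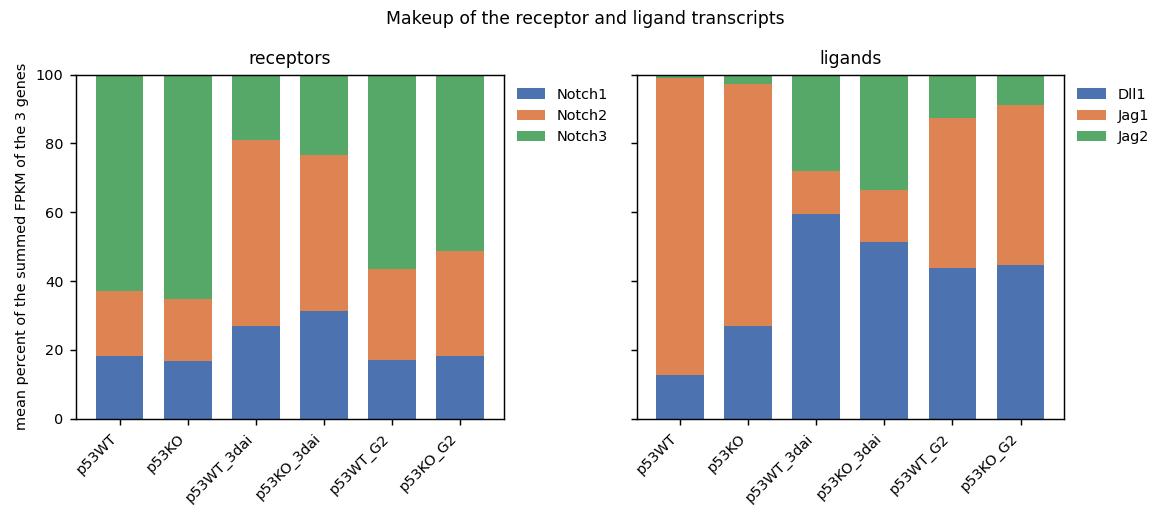
Mean percent of the summed FPKM of 3 receptors (left) and 3 ligands (right) held by each gene in each group. Notch3 and Jag1 hold the largest shares with no suffix, and Notch2 and Dll1 the largest in 3dai.

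The makeup of both classes differed between groups. Notch3 held 62.9% ± 4.80 of the receptor FPKM in p53WT, 19.0% ± 1.18 in p53WT_3dai (n = 3 each) and 56.4% ± 5.47 in p53WT_G2 (n = 2). Notch2 held 18.9% ± 1.38, 54.2% ± 2.30 and 26.7% ± 2.35. Jag1 held 86.3% ± 1.92 of the ligand FPKM in p53WT, 12.6% ± 2.54 in p53WT_3dai and 43.4% ± 7.17 in p53WT_G2. Over these groups the share of Dll1 was 12.6% ± 2.06, 59.4% ± 1.43 and 43.9% ± 6.85. The summed ligand FPKM was 30.1 ± 6.81 in p53WT and 33.9 ± 3.89 in p53WT_3dai, with overlapping libraries, and 50.1 ± 3.66 in p53WT_G2. The summed receptor FPKM was 133 ± 17.3, 30.5 ± 7.84 and 101 ± 7.68, and that of the 3 effectors 119 ± 23.1, 18.0 ± 4.41 and 53.2 ± 0.950. Effector sums of the 3 groups did not overlap, and G2 lay between the other two. In p53KO Notch3 held 65.3%, 23.4% and 51.2% of the receptor FPKM, and Jag1 70.3%, 14.9% and 46.3% of the ligand FPKM. These shares are descriptions without a test.

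Rbpj is the DNA-binding partner of all Notch receptors. Its FPKM was 29.6, 19.6 and 19.3 in p53WT, 21.0, 13.5 and 13.6 in p53WT_3dai and 15.5 and 13.8 in p53WT_G2. In p53KO it was 16.6, 23.0 and 39.3, in p53KO_3dai 16.3, 10.7 and 15.4 and in p53KO_G2 27.8 and 15.7. In the order of its 6 group means every pair of neighbours overlapped. In p53WT_3dai the difference was -0.49 (95% interval -1.16 to 0.18, adjusted p = 0.211). The fall in p53KO_3dai (-0.79, SE 0.31, adjusted p = 0.0466) was lost in 8 of 15 alternatives (0.00804 to 0.348), among them those without p53KO replicate 2 or 3 and without p53KO_3dai replicate 2 or 3. Under quantile normalization or median-of-ratios scaling the p53WT difference passed (-0.82 and -0.87). Neither G2 difference from no suffix passed (-0.58 and -0.23).

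Among the effectors is Heyl, a Hey family repressor. Its FPKM was 43.6, 20.3 and 30.6 in p53WT, 0.472, 0.536 and 0.782 in p53WT_3dai and 15.2 and 15.7 in p53WT_G2. In p53KO it was 30.1, 28.8 and 77.9, in p53KO_3dai 0.900, 1.92 and 1.45 and in p53KO_G2 10.9 and 18.5. All 3dai libraries were under 2 FPKM and all others over 10, and within each genotype G2 lay between 3dai and no suffix without overlap. Heyl fell in 3dai in p53WT (log2 difference -4.29, SE 0.37, adjusted p = 2.19e-07) and in p53KO (-4.13, SE 0.37, adjusted p = 2.86e-07). The step from no suffix to G2 passed in p53KO (-1.46, SE 0.41, adjusted p = 0.0153) and not in p53WT (-0.91, SE 0.41, adjusted p = 0.116). The p53WT difference passed under both scalings and with array weights (0.0255 to 0.319 over 13 alternatives). The p53KO call was lost with only the groups compared, without p53KO replicate 3 (adjusted p = 0.0527) and without p53KO_G2 replicate 1 (0.169), over 13 alternatives 0.00423 to 0.169. Against 3dai Heyl was higher in G2 by 3.37 in p53WT and 2.67 in p53KO.

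Hey1, a close relative of Heyl, had the same order of suffixes within each genotype. It stood at 44.2, 45.2 and 46.4 FPKM in p53WT, 4.25, 4.30 and 0.326 in p53WT_3dai and 24.0 and 14.0 in p53WT_G2. The p53KO values were 61.0, 44.8 and 53.5, those of p53KO_3dai 4.18, 3.01 and 3.03 and those of p53KO_G2 12.1 and 11.6. None of the 3 suffix groups overlapped within a genotype, and p53WT_3dai replicate 3 was the lowest library of all. The fall in 3dai was -3.80 in p53WT (SE 0.41, adjusted p = 1.75e-06) and -3.62 in p53KO (SE 0.41, adjusted p = 2.80e-06). In G2 it fell in p53KO (-2.06, SE 0.45, adjusted p = 0.00329). In p53WT the G2 difference missed the threshold (-1.25, SE 0.45, adjusted p = 0.0516) and passed in 6 of 13 alternatives (0.00528 to 0.344), the replicate block among them (0.0269). Against 3dai it was higher by 2.54 in p53WT_G2 and by 1.55 in p53KO_G2. The second of these (adjusted p = 0.0229) was lost in 6 of 14 alternatives (0.0144 to 0.260), including those without p53KO_3dai replicate 2 or 3 or either p53KO_G2 library.

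Hes1, the Hes family repressor induced by Notch and by other signals, had the largest median SD relative to the group mean of the 10. Its FPKM was 55.1, 31.4 and 40.2 in p53WT, 15.1, 8.14 and 20.1 in p53WT_3dai and 14.6 and 22.8 in p53WT_G2. In p53KO it was 54.5, 35.7 and 103, in p53KO_3dai 8.24, 1.21 and 9.05 and in p53KO_G2 11.8 and 28.6. Within each genotype no suffix lay above both suffixes, and in p53WT the 2 suffixes overlapped. Hes1 fell in p53KO_3dai (log2 difference -3.34, SE 0.54, adjusted p = 9.85e-05) and in p53WT_3dai (-1.53, SE 0.54, adjusted p = 0.0267). The p53WT call was lost in 4 of 14 alternatives (0.00361 to 0.114). One was the fit with no filter (adjusted p = 0.0534). The others left out p53WT replicate 1 (0.0906), p53WT replicate 3 (0.0569) or p53WT_3dai replicate 2 (0.114). The G2 differences from no suffix were -1.13 in p53WT (adjusted p = 0.185) and -1.61 in p53KO (adjusted p = 0.0576), and did not pass. The p53WT one passed with only the groups compared (0.0266 to 0.516 over 13 alternatives). The p53KO one passed in 5 of 13 (0.0191 to 0.393), both scalings and the fits without p53KO replicate 2 and without p53KO_G2 replicate 2 among them. Against p53KO_3dai the difference in p53KO_G2 was 1.73 (adjusted p = 0.0513) and passed in 5 of 14 alternatives (0.0218 to 0.366), that without p53KO_3dai replicate 1 among them (0.0313).

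Did the Notch genes differ between p53KO and p53WT? At none of the suffixes did any of the 10 pass limma's test. Of all genes 0.00772%, 0.0849% and 0.0695% passed, in the order no suffix, 3dai, G2. The 3dai share rests on p53KO_3dai replicate 1, without which 514 genes passed in place of 11, and 804 passed with array weights, which give each library a weight by its fit. No member passed in either. In the order above the genotypes did not overlap for 2, 1 and 5 members, beside 6.73%, 12% and 31.2% of all genes. At an unadjusted p under 0.05 there was 1 of the 10 members in each comparison, Dll1, Hes1 and Jag2 in that order. Of all 12954 genes 512, 1151 and 631 were under that threshold, so nothing particular to the members is drawn from these counts. Dll1 with no suffix stood at 7.98 ± 5.24 FPKM in p53KO and 3.71 ± 0.344 in p53WT (log2 difference 0.78, 95% interval 0.05 to 1.51, adjusted p = 1). The groups did not overlap, but p53KO replicate 3 alone reached 14.0 FPKM. Hes1 in 3dai stood at 6.17 ± 4.31 against 14.5 ± 6.02 (-1.31, -2.46 to -0.15, adjusted p = 0.458), with overlapping libraries. Jag2 in G2 stood at 3.35 ± 0.0860 against 6.40 ± 0.625 (n = 2 each; -0.76, -1.51 to -0.01, adjusted p = 1), without overlap.

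**Figure D4:**
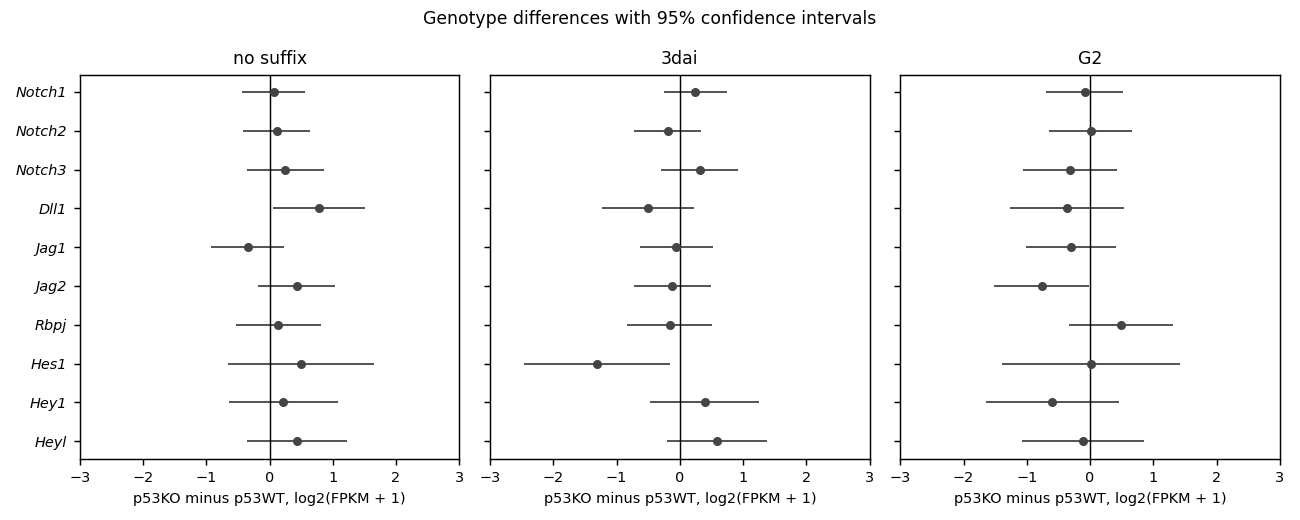
Difference p53KO minus p53WT of each gene in log2(FPKM + 1), with its 95% interval, for no suffix, 3dai and G2. Intervals of Dll1 with no suffix, Hes1 in 3dai and Jag2 in G2 leave out 0 before adjustment, and Hes1 has the widest intervals.

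The intervals limit how large a genotype difference could be. With no suffix Notch1 differed by 0.07 (-0.43 to 0.56) and Notch2 by 0.11 (-0.42 to 0.65). Notch3 differed by 0.25 (-0.36 to 0.86) and Hes1 by 0.50 (-0.65 to 1.65). In 3dai Heyl was higher in p53KO without overlap, at 1.42 ± 0.511 against 0.597 ± 0.164 FPKM (0.59, -0.20 to 1.38, adjusted p = 0.703). The difference between the genotype effects in 3dai and with no suffix passed for no member, nor did that between G2 and no suffix. At an unadjusted p under 0.05 Dll1 (-1.29) and Hes1 (-1.81) stood in the first and Jag2 (-1.19) in the second, with adjusted p = 0.820, 0.820 and 1. Of all 12954 genes 777 and 564 were under that unadjusted threshold, and nothing particular to the members is drawn from their counts. At an adjusted p under 0.05, 0% and 0.0232% of all genes passed these tests. Without p53KO_3dai replicate 1, 146 genes passed the first test in place of 0, again with no member among them.

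Over all 6 groups, ordered by mean FPKM, neighbouring groups of Notch1 and of Jag1 failed to overlap only between G2 and 3dai, and those of Notch2 only between p53WT and p53WT_3dai. Hes1 had 1 such gap, between p53WT and p53KO_G2. Notch3 had 2, below p53WT and below p53KO_G2, and Heyl 3, the last between p53KO_3dai and p53WT_3dai. Hey1 had 3 gaps, and only its highest pair (p53KO and p53WT) and its lowest pair (the 3dai groups) overlapped. Dll1 was highest in p53WT_G2 and lowest in p53WT, and Jag2 highest in p53WT_3dai and lowest in p53WT.

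**Figure D5:**
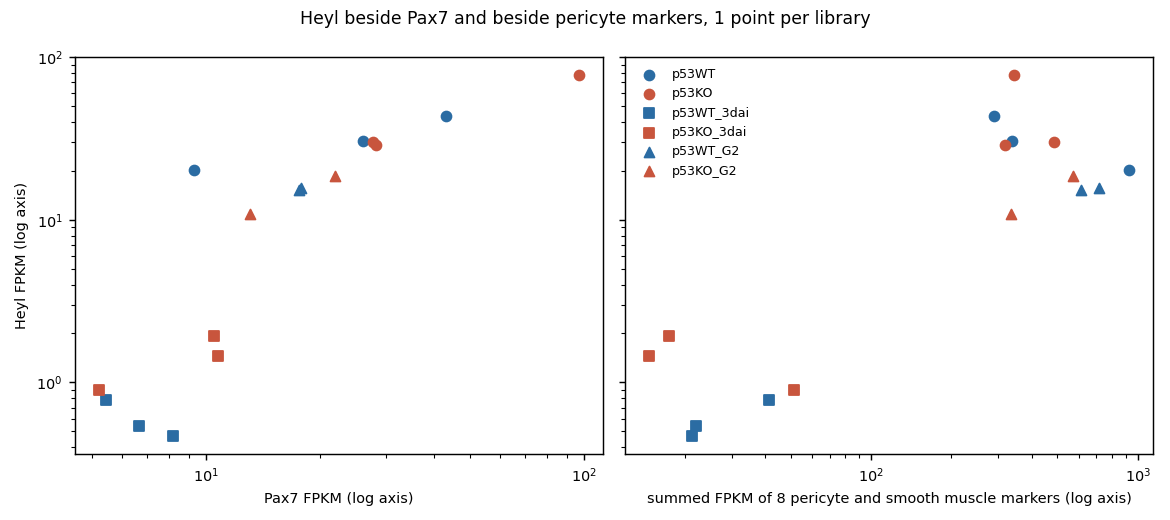
FPKM of Heyl in each of the 16 libraries (log axes) against that of Pax7 (left) and the summed FPKM of 8 pericyte and smooth muscle markers (right), with circles for no suffix, squares for 3dai and triangles for G2. Among the libraries with no suffix, the one with the largest marker sum, 926.5, has the lowest Heyl, 20.3, while in both G2 groups the library with the larger sum has the higher Heyl.

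Many markers of other cells fell in 3dai, as did Notch3, Jag1, Hey1 and Heyl, while in G2 the marker lists went different ways. All 8 pericyte and smooth muscle markers fell in 3dai in both genotypes (medians -2.92 and -3.03), and the same held for the 6 Schwann cell markers (-3.27 and -3.64). Of 6 tenocyte markers 5 fell in each genotype and Scx rose, and of 6 fibro-adipogenic markers 4 fell in p53WT and 3 in p53KO. Of 8 satellite cell markers 5 fell in each genotype, among them Pax7 and Calcr, and Itga7 rose. In G2 against no suffix none of the 8 pericyte markers passed limma's test in either genotype, while 4 satellite cell markers fell in each. Of the 8 satellite cell markers, Cdh15 and Itga7 rose in p53WT_G2 and Itga7 rose in p53KO_G2. Of all genes 22.1% rose and 5.39% fell in p53WT_G2, and 22.5% rose and 7.06% fell in p53KO_G2. In p53WT_G2 the 8 pericyte markers summed to 611 and 713 FPKM, and p53KO_G2 had sums of 334 and 573. In p53KO_3dai Kcnj8 and Abcc9, and in p53WT_3dai Kcnj8, were listed at 0 in every library. In G2 4 of the 6 Schwann cell markers fell in each genotype, and 3 (p53WT) and 4 (p53KO) of 5 measured mature fibre markers rose, with sums of 233 to 898 FPKM against 17.3 to 63.5 with no suffix. The part of these cells in the Notch differences was not tested. Endothelial markers summed to no more than 27.5 FPKM in any library, and Notch4 and Dll4, a receptor and a ligand of endothelial cells, reached at most 0.225 and 0.390 FPKM.

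Within groups, deviations of Heyl correlated more with those of Pax7, the transcription factor of satellite cells, than with those of mural cell genes. Pax7 was at 43.1, 9.33 and 26.0 FPKM in p53WT and 27.7, 28.2 and 97.1 in p53KO, and Heyl had the same highest and lowest library in p53WT and the same highest in p53KO. In p53WT_3dai the order was reversed, with Pax7 at 8.18, 6.67 and 5.45 and Heyl at 0.472, 0.536 and 0.782, and in p53KO_3dai the highest libraries differed. Over deviations from the group means in the 16 libraries, on the log2(FPKM + 1) scale, Pearson's r of Heyl was 0.92 with Pax7, 0.67 with Calcr and 0.73 with Notch3. It was -0.47 with Rgs5 and -0.18 with Myh11, a pericyte and a smooth muscle gene. Notch3 had 0.64 with Pax7, 0.09 with Rgs5 and 0.32 with Myh11. Jag1 had the opposite order, 0.74 with Rgs5, 0.40 with Myh11 and -0.54 with Pax7. These are descriptions over 16 points that share libraries, scaling and cell makeup, and these 4 marker genes were chosen after their values were seen. The p53WT library with the largest pericyte sum, replicate 2, had the lowest Heyl, Notch3, Hes1 and Pax7 of its group. In p53KO the library with the largest sum, replicate 1, had the lowest Pax7 but the lowest of none of Heyl, Notch3 and Hes1. In both G2 groups the library with the larger sum had the higher Heyl, Notch3 and Hes1.

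The lists of genes around the core pathway are given by their counts, to be read against the shares of all genes that passed: 52.7% and 53.1% in 3dai and 27.5% and 29.6% in G2, in p53WT and p53KO. Nothing particular to a list is drawn from its count. Of the 13 measured ubiquitin ligases, Numb proteins and other regulators, 1 rose and 4 fell in p53WT_3dai and 2 rose and 5 fell in p53KO_3dai, with median log2 differences of -0.44 and -0.75 beside 0.23 and 0.14 over all genes. Nrarp, a Notch target that codes a feedback inhibitor of Notch, had the largest fall of these in p53WT_3dai. Its FPKM was 8.06, 36.3 and 14.4 in p53WT, 0.390, 0.564 and 0.225 in p53WT_3dai and 23.9 and 28.2 in p53WT_G2. The p53WT_3dai libraries lay below the others, and in G2 Nrarp overlapped no suffix (-3.65 in 3dai, SE 0.50, adjusted p = 1.93e-05; 0.64 in G2, adjusted p = 0.432). Dtx3, of the Deltex ligases, fell in p53WT_3dai (-2.01). Neurl1a, a ligase of the Neuralized family, which acts on Notch ligands, rose by 2.56 in p53WT_G2 (adjusted p = 0.00170).

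Of 4 measured glycosyltransferases, which modify the receptors' extracellular part, 3 rose in p53WT_3dai and 2 in p53KO_3dai, and 1 rose in G2 in each genotype. Pofut1, the O-fucosyltransferase, stood at 3.25 ± 1.02 FPKM in p53WT, 12.5 ± 1.12 in p53WT_3dai and 10.2 ± 1.16 in p53WT_G2, and rose in both (adjusted p = 2.61e-05 and 0.00104). Poglut1, an O-glucosyltransferase, rose by 0.98 in p53WT_3dai, a call lost under both scalings. Of 8 measured proteases that cleave Notch, 4 rose and 3 fell in p53WT_3dai, 2 rose and 2 fell in p53KO_3dai, and 3 rose in G2 in each genotype. The gamma-secretase subunits Aph1a and Ncstn rose in p53WT_3dai by 0.98 and 0.85, calls lost under both scalings, and that of Aph1a also without p53WT replicate 1 or p53WT_3dai replicate 2 (0.00414 to 0.133 over 14 alternatives). Psen2, a catalytic subunit of gamma-secretase, fell (-1.13), a call lost in 5 of 13 alternatives (0.0113 to 0.207), among them those without p53WT replicate 1 or any 1 of the p53WT_3dai libraries. In p53WT_G2 Adam17 rose by 1.07 and Ncstn by 1.01, the latter lost under both scalings and without p53WT_G2 replicate 2.

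Of 7 nuclear cofactors 0 rose and 2 fell in p53WT_3dai, 0 rose and 3 fell in p53KO_3dai, 1 rose and 1 fell in p53WT_G2 and 1 rose in p53KO_G2. Of all genes 20.9% and 22.7% fell in 3dai, in p53WT and p53KO, and the median differences of the cofactors there were -0.32 and -0.56. Kat2b, a histone acetyltransferase, fell in p53WT_3dai from 18.9 ± 2.56 to 3.30 ± 0.976 FPKM (-2.23, adjusted p = 2.64e-06). In p53WT_G2 Maml3, a Mastermind coactivator, rose by 1.47 and Snw1, a nuclear coregulator, fell (-0.49). The Maml3 call was lost without p53WT_G2 replicate 2 (adjusted p = 0.0822; 0.00233 to 0.0822 over 12) and the Snw1 call in 6 of 13 alternatives (0.00153 to 0.261), including those without p53WT replicate 1 or 2 or either p53WT_G2 library.

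Of the 6 other receptors and ligands only Dlk1 and Dlk2 passed the filter. Dlk2, a non-canonical ligand, was at 0 in the files of all 6 p53WT and p53KO libraries. It stood at 8.69, 14.2 and 7.03 FPKM in p53WT_3dai and 3.53, 12.0 and 8.73 in p53KO_3dai, and rose in both (adjusted p = 0.000245 and 0.000605). Of the 3 measured other Hes and Hey genes, Hes6, which is known to oppose Hes1 rather than act for Notch, rose with both suffixes. Its FPKM was 2.58, 4.76 and 0.643 in p53WT, 54.6, 40.2 and 63.4 in p53WT_3dai and 30.4 and 55.5 in p53WT_G2, without overlap between no suffix and either suffix. The rise was 4.03 in 3dai (SE 0.48, adjusted p = 4.66e-06) and 3.70 in G2 (SE 0.53, adjusted p = 0.000128), and Hes6 rose in p53KO too (2.79 and 2.08).

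All 5 muscle stem cell genes linked to Notch, Pax7, Calcr, Col5a1, Col5a3 and Megf10, fell in 3dai in both genotypes (medians -1.82 and -2.20). Calcr, the calcitonin receptor of quiescent satellite cells, was at 54.5, 30.6 and 55.6 FPKM in p53WT, 0.0707, 0.829 and 0 in p53WT_3dai and 14.3 and 10.0 in p53WT_G2. It fell in 3dai (-5.21, adjusted p = 1.16e-08) and in G2 (-1.83, adjusted p = 0.00231), the latter lost with a pseudocount of 0.1 (0.0913; 0.000451 to 0.0913 over 13 alternatives). The collagen V genes differed from Calcr in G2. Col5a1 stood at 33.8, 3.27 and 53.2 FPKM in p53WT, p53WT_3dai and p53WT_G2, and Col5a3 at 32.0, 10.1 and 90.3. Col5a3 rose in p53WT_G2 by 1.47 (adjusted p = 0.00858), a call lost without p53WT_G2 replicate 2 (0.0775; 0.00180 to 0.0775 over 13 alternatives).

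The genes whose pattern over the 16 libraries was most like that of a member were sought among 8179 genes with a mean of at least 5 FPKM, by Pearson's r of log2(FPKM + 1). Among the closest to Notch3 were Col15a1 (r = 0.988) and Chodl (0.987), and the closest to Heyl were Nfia, Notch3 and Abca5 (all 0.987). Hey1 was followed most closely by Zhx2 (0.983), Esr1 (0.980) and Nup98 (0.978). For Notch1 they were Prdm2 (0.973), Hey1 (0.972) and Arhgef12 (0.970), and Hes1 had Tob1 (0.946) and Use1 (0.944) among its closest. Members thus stood among the closest genes of Notch1 and of Heyl. Libraries of a group share its level, so the 16 points are not independent.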

How the data were processed

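The authors deposited gene-level FPKM, the only unit used, from directional libraries of total RNA. The submitters' processing notes name STAR, Cufflinks, Cuffdiff and mm10, and the sources used here give no versions. The files hold no counts, so no count test was run. FPKM were transformed as log2(FPKM + 1), a filter of 1 FPKM or more in 2 libraries or more kept 12954 of 24341 genes, and all 16 libraries in 6 groups entered 1 fit in limma 3.58.1 (R 4.3.3) with a mean-variance trend. P-values were adjusted by Benjamini-Hochberg over all genes tested, and calls were made at an adjusted p under 0.05. Members and lists were chosen with earlier results of these data known. From each pathway list up to 2 rises and 2 falls were named, the largest called in p53WT_3dai and p53WT_G2 with a mean of at least 5 FPKM in the higher group. The replicate-number block, 2 scalings, another pseudocount, other filters, array weights, a fit of the compared groups alone and leaving out each library were tried as alternatives. Some genes that these rules name are not reported here.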

Additional observations from a re-analysis of the deposited data

How the results depend on the processing

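No direction changed sign in 1098 alternatives over 79 named differences. In 46 of these differences the outcome, passing or not passing, was the same in every alternative, while 84 alternatives lost and 32 gained a call. Against no suffix, p53WT_G2 had 2 members called, and 5 with quantile normalization, 6 with median-of-ratios scaling, 4 with array weights and 4 with only the groups compared. In p53KO_G2 5 became 1 with only the groups compared and 2 to 5 when a library was left out, 2 without p53KO_G2 replicate 1 and 3 without p53KO replicate 3. From p53KO_3dai to p53KO_G2 6 became 3 to 7, 3 each without p53KO_3dai replicate 2, without p53KO_G2 replicate 2, and with p53KO_3dai replicate 1 alone in its group, where its spread is assumed to be that of the other groups. The causes were not tested. In the comparisons of genotype and their interactions 0 members were called in every alternative. Same-numbered replicates correlated at -0.16 to 0.13 in their deviations from group means and share only a number. With the replicate block 8 and 10 members were called in 3dai against no suffix, 3 and 5 in G2 against no suffix, and 5 and 6 in G2 against 3dai, for p53WT and p53KO. Median-of-ratios scaling moved the median difference of all genes by -0.29 and -0.23 in 3dai and by -0.33 and -0.34 in G2 against no suffix. Depth is unknown, and the G2 groups hold 2 libraries each.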
